A study of Mus musculus with 12 samples.

Results

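Genes of the red blood cell lineage were followed in RNA from mouse fetal membranes, the sacs around the fetus. The set held 33 symbols for the erythroid cell membrane, heme and iron supply, cytoplasmic enzymes and lineage regulators, with the globin genes left out. Of these, 32 matched 1 row each among the 48795 genes of the count table, and 31 passed the filter on low counts. Car1 (carbonic anhydrase of red cells) was too low to be tested, at 0 to 0.132 CPM (the read count of a gene scaled to library depth, here with TMM factors), and Ahsp, which encodes a globin chaperone, had no row under that symbol and is not analysed here. Tissue came from 2 gestational ages, embryonic day 12 (E12) and 18 (E18), with 12 libraries in 4 groups of 3. DKO is the double knockout of Bgn and Dcn, which encode the collagen-binding proteoglycans biglycan and decorin, and WT is wild type. WT mice were C3H, while C3H and C57BL/6 are named for DKO, so strain and genotype cannot be told apart. Nothing in the labels says whether the 3 libraries of a group came from separate litters or animals, so p-values measure the spread between these libraries, which may be technical.

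Red blood cells arise in waves. A primitive wave forms in the yolk sac and carries embryonic globins, and a definitive wave from the fetal liver carries adult globins. As erythroblasts mature, transcription factors led by GATA1, KLF1 and TAL1 switch on a shared program. It covers the heme pathway, which starts in mitochondria with ALAS2, the transferrin receptor TFRC for iron uptake, the band 3 anion exchanger SLC4A1, and a spectrin skeleton tied to band 3 through ankyrin and protein 4.2. Late erythroblasts of the definitive wave expel the nucleus and become reticulocytes, which still hold messages and make no new ones. In bulk RNA, fewer cells of a type and less RNA per cell cannot be told apart.

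Total counts were 19967593 to 33065424 per library. Bgn and Dcn stood at 14.3 to 25.1 and 4.67 to 8.44 CPM in the DKO libraries and at 223 to 686 and 198 to 978 CPM in WT. Embryonic genes supplied 82.3 to 85.1% of beta-globin counts in E12 DKO and 1.33 to 2.67% in E18 DKO. In the libraries labelled E18 WT they supplied 74.8 to 87.8%, near the E12 DKO share and far from that of E18 DKO. E12 WT 1 held 14.8%, against 95 and 97.0% in the other E12 WT libraries. The E18 WT libraries and E12 WT 1 thus stood apart from what their labelled day would give, and their stage is written as labelled. The contrast of E18 DKO with E12 DKO has none of them in either group, but they enter the shared estimate of spread. Without E12 WT 1 this contrast called 25 members in place of 23, beside 10014 of 18723 genes in place of 8349 of 18153. Globin reads from near-identical gene copies are uncertain. Mitochondrial genes took 21.2% of the counts of E12 WT 3 and 3.58 to 7.78% elsewhere. Markers of trophoblast and decidua, a list of 5, summed to 5.77 to 799 CPM in E18 WT and 0.550 to 36.1 in the other groups. One of them, Tpbpa, measured 556 CPM in E18 WT 3 and 15.5 and 3.98 in the other E18 WT libraries.

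**Figure D1:**
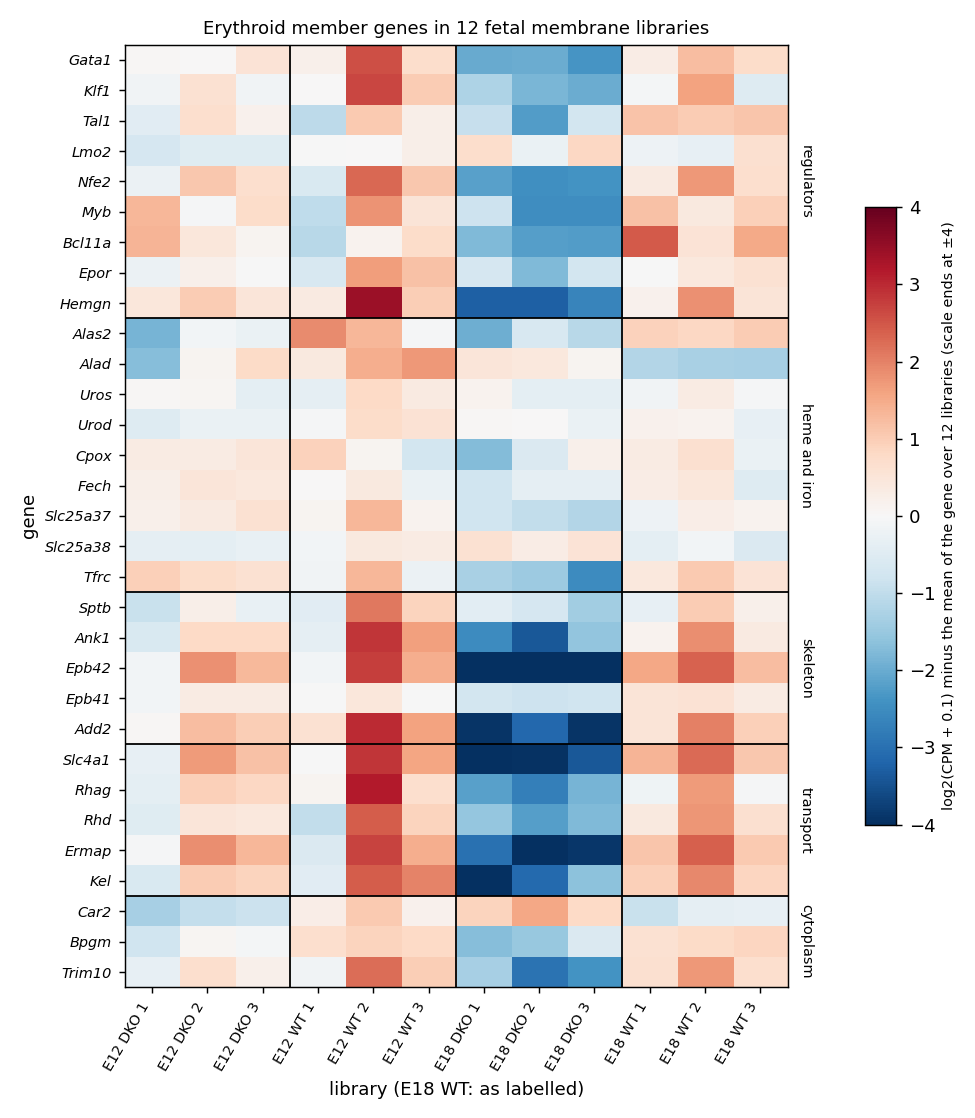
Level of the 31 tested members (rows, by role) in the 12 libraries (columns), as log2(CPM + 0.1) minus the mean of that gene over the 12 libraries, with colours ending at ±4. The 3 E18 DKO columns are blue for most regulator, skeleton and transport genes, while Car2, Lmo2 and Slc25a38 are near or above their means there. E12 WT 2 is red for most rows.

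Most of the set was lower in E18 DKO than in either group it was compared with. Against the libraries labelled E18 WT, 21 of 31 tested members fell and 3 rose, beside 21.8% of all 18153 tested genes called lower and 20.5% called higher. A gene was called where the quasi-likelihood test of edgeR gave a Benjamini-Hochberg adjusted p under 0.05, with every tested gene in the adjustment. The median log2 fold change was -2.37 for the members and -0.04 for all genes. Against E12 DKO, 20 members fell and 3 rose, beside 22.8% of all genes called lower and 23.2% called higher, with medians of -2.10 and -0.02. The E18 DKO libraries enter both comparisons, so these are not independent of each other. Side by side, 19 members were called lower in both, Car2 and Slc25a38 higher in both, and 5 (Cpox, Epor, Sptb, Urod and Uros) in neither. The share of all genes called in both was not computed. The CPM ranges of E18 DKO and E18 WT did not overlap for 26 members, 23 of them lower in E18 DKO and 3 higher. Of all tested genes, 29.1% were lower without overlap and 27.8% higher. Against E12 DKO, 22 members were lower without overlap and 4 higher, beside 34.1% and 33.1% of all tested genes. Scaling by library size alone moved the median of all genes to -0.41 and -0.37 in these comparisons, and the all-gene calls from 3725 higher and 3953 lower to 2382 and 6015 against E18 WT, and from 4203 and 4146 to 2809 and 5947 against E12 DKO.

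**Figure D2:**
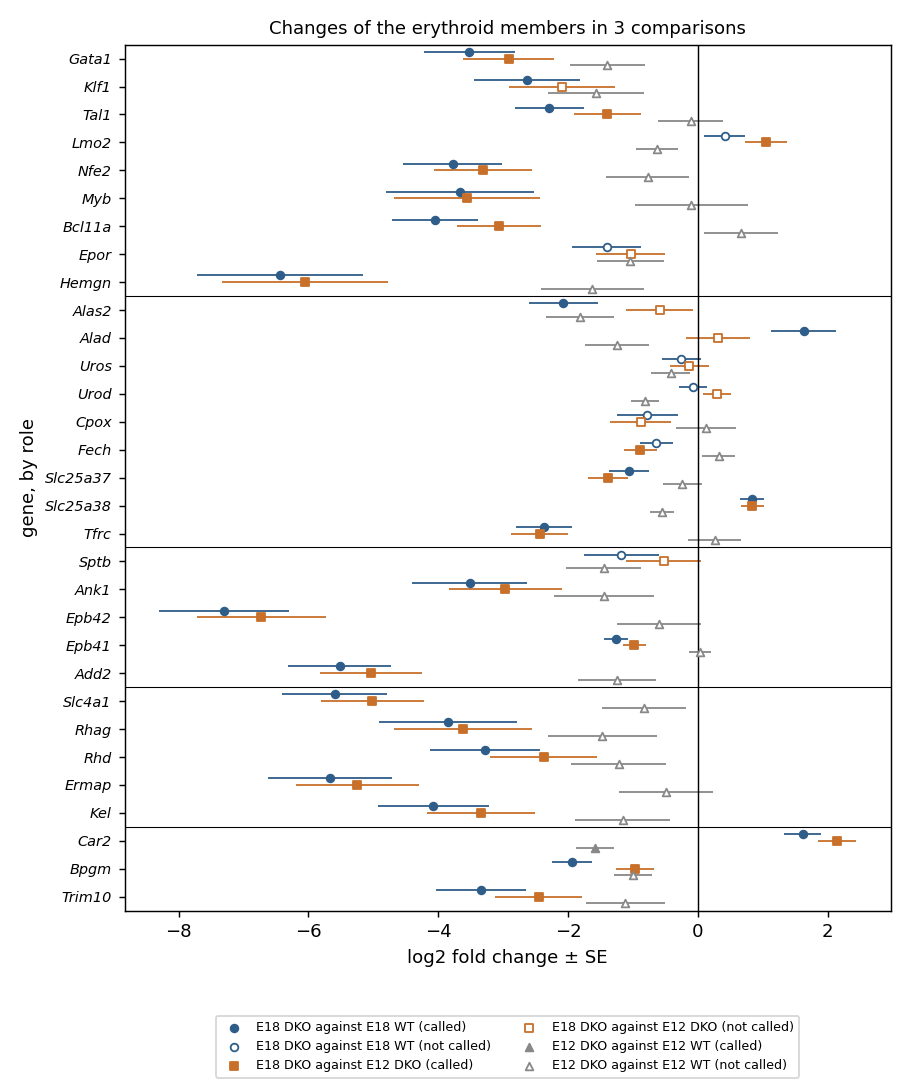
Log2 fold change with its standard error for each tested member in E18 DKO against E18 WT (circles), E18 DKO against E12 DKO (squares) and E12 DKO against E12 WT (triangles). Filled symbols passed the adjusted p of 0.05. The E18 DKO values spread from -7.30 for Epb42 to 2.14 for Car2, and the E12 values from -1.82 for Alas2 to 0.66 for Bcl11a.

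Among the lineage regulators, 7 of 9 fell in E18 DKO against E18 WT, and against E12 DKO 6 fell and 1 rose. Of all genes, 21.8% were called lower against E18 WT, and 22.8% lower and 23.2% higher against E12 DKO. Gata1 (chromosome X, 7959260 to 7978071 on GRCm38) encodes the master factor of the red cell lineage. It measured 1.02, 0.983 and 1.47 CPM in E12 DKO, 1.14, 6.32 and 1.65 in E12 WT, 0.165, 0.171 and 0.109 in E18 DKO, and 1.21, 2.4 and 1.68 in the libraries labelled E18 WT. All 3 E18 DKO values lay below all 9 others, with no overlap. The log2 fold change was -3.52 ± 0.70 (SE) against E18 WT (adjusted p = 0.00260) and -2.92 ± 0.70 against E12 DKO (adjusted p = 0.00615).

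Hemgn encodes hemogen, a nuclear protein of blood precursors. It measured 1.22, 1.86 and 1.25 CPM in E12 DKO, 1.14, 10.3 and 1.82 in E12 WT, and 0.980, 3.34 and 1.27 in E18 WT, but 0, 0 and 0.0545 CPM in E18 DKO. A library at 0 is bounded by 3 counts, which is 0.165 CPM in E18 DKO 1 and 0.128 CPM in E18 DKO 2, still below every library of the other groups. The 3 E18 DKO libraries held 1 count in all, against 137 in E12 DKO, a depth-scaled ratio of 85.6 (exact 95% interval 15.1 to 3405, counting error only), and 171 in E18 WT, a ratio of 121 (21.4 to 4793). The tests gave adjusted p = 0.00253 against E18 WT and 0.00316 against E12 DKO.

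Nfe2, the tissue-specific subunit of the factor NF-E2 in red cells and megakaryocytes, ran from 0.256 to 0.330 CPM in E18 DKO. Its values were 1.54, 4.0 and 3.05 CPM in E12 DKO, 1.19, 9.42 and 4.0 in E12 WT, and 2.41, 6.42 and 3.04 in E18 WT. The E18 DKO range, made of 0.330, 0.256 and 0.272 CPM, lay below every other library. It fell by 3.78 ± 0.76 on the log2 scale against E18 WT (adjusted p = 0.00275) and by 3.31 ± 0.75 against E12 DKO (adjusted p = 0.00472).

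Bcl11a encodes a repressor that silences embryonic and fetal globin genes in adult-type cells. It measured 5.06, 2.68 and 2.08 CPM in E12 DKO, 0.837, 2.14 and 3.24 in E12 WT, 0.495, 0.341 and 0.327 in E18 DKO, and 10.9, 2.87 and 5.66 in E18 WT. The 3 E18 DKO libraries had the lowest Bcl11a, below all 9 others. Bcl11a fell by 4.05 ± 0.67 on the log2 scale against E18 WT (adjusted p = 0.000950, and -3.45 without E18 WT 1) and by 3.07 ± 0.65 against E12 DKO (adjusted p = 0.00316). Bcl11a and Lmo2 are expressed in other cells too, so bulk levels of either gene need not be erythroid.

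The other regulators split. Tal1, a partner of GATA1, measured 4.56, 1.79 and 5.17 CPM in E18 DKO against 17.6 to 19.4 in E18 WT, 6.34 to 14.1 in E12 DKO and 4.18 to 18.2 in E12 WT, so that only E12 WT overlapped it. It fell by 2.29 ± 0.53 against E18 WT (adjusted p = 0.00575). Against E12 DKO it fell by 1.39 ± 0.52 (adjusted p = 0.0458), a call lost in 9 of 12 fits without 1 library (adjusted p up to 0.155, without E12 DKO 2). Lmo2, which bridges TAL1 and GATA1 in a complex, went the other way between the DKO stages, from 5.88, 6.75 and 6.76 to 15.4, 7.89 and 16.9 CPM. It rose by 1.05 ± 0.33 (adjusted p = 0.0214), with no overlap, but the call was lost with library size alone (adjusted p = 0.0954) and in 5 of 12 fits without 1 library. Against E18 WT, Lmo2 differed by 0.41 ± 0.32 (adjusted p = 0.322). Tal1, Lmo2 and Alad are given with their values because of what those values showed, outside the rule for named genes.

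Klf1, the activator of adult beta-globin, stood at 0.218 to 0.440 CPM in E18 DKO and 0.780 to 3.81 in E18 WT, and Myb, a factor of early progenitors, at 0 to 0.220 and 0.645 to 1.17. Both fell against E18 WT (adjusted p = 0.0237 and 0.0231), and each call was lost in 3 of 12 fits without 1 library, up to adjusted p = 0.127 for Klf1 without E18 WT 2, where its log2 value went from -2.63 to -1.62. Between the DKO stages Myb fell (4 counts against 83, a depth-scaled ratio of 13.0 with an exact 95% interval of 4.88 to 48.7, adjusted p = 0.0243), a call lost without E12 DKO 1, E18 DKO 2 or E18 DKO 3, while Klf1 differed by -2.10 ± 0.82 (adjusted p = 0.0545). Epor, the erythropoietin receptor, ranged from 0.768 to 1.76 CPM in E18 DKO and from 2.43 to 3.32 in E12 DKO. It was not called in either comparison (adjusted p = 0.0520 against E18 WT and 0.129 against E12 DKO).

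Of 9 genes of heme synthesis and iron supply, 3 fell and 2 rose against E18 WT (33.3% and 22.2%, beside 21.8% and 20.5% of all genes), and 3 fell and 1 rose against E12 DKO (33.3% and 11.1%, beside 22.8% and 23.2%). With 9 genes these counts do not set the group apart from all genes. Tfrc, through which erythroblasts take up iron-loaded transferrin, measured 108, 92.1 and 85.4 CPM in E12 DKO, 50.4, 140 and 47.8 in E12 WT, 22.4, 20.5 and 9.70 in E18 DKO, and 75.0, 116 and 81.3 in E18 WT. Every E18 DKO library was below every other one. Tfrc fell by 2.37 ± 0.44 on the log2 scale against E18 WT (adjusted p = 0.00174) and by 2.44 ± 0.44 against E12 DKO (adjusted p = 0.00133). Many dividing cells carry Tfrc, so its level here is not that of red cells alone.

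The pair of mitochondrial carriers in the set moved in opposite directions. Slc25a37 (mitoferrin-1) brings iron into the mitochondrion, and measured 81.1, 90.5 and 109 CPM in E12 DKO, 75.9, 177 and 78.3 in E12 WT, 40.6, 35.7 and 31.1 in E18 DKO, and 61.5, 84.6 and 77.6 in E18 WT. All its E18 DKO values were the lowest of the 12. It fell by 1.38 ± 0.31 on the log2 scale against E12 DKO (adjusted p = 0.00406) and by 1.06 ± 0.30 against E18 WT (adjusted p = 0.0165), the latter lost without E18 DKO 3 or E18 WT 2 (adjusted p = 0.0567 and 0.0556).

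Slc25a38, a mitochondrial glycine carrier that supplies the first step of heme synthesis, was higher in E18 DKO. It measured 17.1, 16.8 and 17.9 CPM in E12 DKO, 20.1, 28.6 and 27.5 in E12 WT, 33.5, 27.1 and 32.3 in E18 DKO, and 16.8, 20.3 and 14.8 in E18 WT. E18 DKO did not overlap either group it was compared with, but it did overlap E12 WT. Slc25a38 rose by 0.84 ± 0.18 on the log2 scale in both comparisons (adjusted p = 0.00426 against E18 WT and 0.00376 against E12 DKO), and with library size alone it kept its direction but neither call (adjusted p = 0.0864 and 0.0754).

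Alas2, the erythroid enzyme that sets the rate of heme synthesis, did not follow most of the membrane genes between the DKO stages. It measured 9.79, 33.4 and 30.2 CPM in E12 DKO, 135, 89.7 and 34.6 in E12 WT, 9.23, 23.0 and 16.6 in E18 DKO, and 68.7, 64.5 and 72.5 in E18 WT. The DKO ranges overlapped across stages, and those of E18 WT lay above all 6 DKO libraries. Alas2 fell by 2.07 ± 0.54 on the log2 scale against E18 WT (adjusted p = 0.0100). Against E12 DKO the difference was -0.59 ± 0.52 (adjusted p = 0.372). E12 WT 1, the library with the low embryonic globin share, had the highest Alas2 of all 12.

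Alad, which joins the products of ALAS into a ring, went against Alas2 at E18. It measured 28.3, 99.5 and 158 CPM in E12 DKO, 122, 250 and 309 in E12 WT, 130, 125 and 99.3 in E18 DKO, and 41.2, 37.1 and 36.3 in E18 WT. The E18 WT values were tight and lay below all 3 E18 DKO values. Alad rose by 1.63 ± 0.50 on the log2 scale in E18 DKO against E18 WT (adjusted p = 0.0222), a call lost with library size alone (adjusted p = 0.0508) and without any 1 of E18 DKO 1, E18 DKO 2 or the 3 E18 WT libraries (adjusted p = 0.0502 to 0.0665). Between the DKO stages it differed by 0.31 ± 0.49 (adjusted p = 0.622), a direction that reversed with library size alone (-0.02) and without E12 DKO 1 (-0.13), the library with the lowest Alad. ALAD is made in many tissues.

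Fech, which inserts the iron, was at 62.4 to 84.9 CPM in E18 DKO, 129 to 153 in E12 DKO and 76.5 to 150 in E18 WT. Fech fell by 0.88 ± 0.26 on the log2 scale against E12 DKO (adjusted p = 0.0158), a call lost without E12 DKO 2 or E18 DKO 1 (adjusted p = 0.0510 and 0.0678), and was not called against E18 WT (adjusted p = 0.0643). Uros (8.22 to 19.1 CPM over the 12 libraries), Urod (23.5 to 56.8) and Cpox (21.9 to 136), enzymes that act between Alad and Fech, had adjusted p of 0.146 or more in both comparisons. Urod stood at -0.07 and 0.29, signs that reversed under other settings.

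Of the 5 genes of the membrane skeleton, 4 fell in each comparison, beside 21.8% and 22.8% of all genes. The medians of the 5 were -3.52 against E18 WT and -2.97 against E12 DKO. Epb42 (chromosome 2, 121017891 to 121037072) encodes protein 4.2, which fastens band 3 to ankyrin. It measured 2.23, 8.98 and 6.20 CPM in E12 DKO, 2.25, 17.3 and 6.83 in E12 WT, 0.0550, 0.0426 and 0.0545 in E18 DKO, and 7.27, 12.8 and 5.83 in E18 WT. Each E18 DKO library held 1 count, at the edge of detection, and the other 9 libraries lay at 2.23 CPM or above. Summed, 3 counts stood against 557 in E12 DKO, a depth-scaled ratio of 116 (exact 95% interval 39.5 to 564), and 773 in E18 WT, a ratio of 182 (62.0 to 884). The fitted log2 values were -6.72 ± 0.99 (adjusted p = 0.000452) and -7.30 ± 1.00 (adjusted p = 0.000394).

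Add2 encodes beta-adducin, a cap of actin filaments at the junctions of the skeleton. It measured 3.16, 7.32 and 6.07 CPM in E12 DKO, 4.71, 25 and 9.47 in E12 WT, 0.110, 0.256 and 0.109 in E18 DKO, and 4.45, 12.7 and 5.99 in E18 WT. Again no E18 DKO library reached the lowest of the others. Add2 fell by 5.52 ± 0.79 on the log2 scale against E18 WT (adjusted p = 0.000493) and by 5.04 ± 0.78 against E12 DKO (adjusted p = 0.000595).

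Ank1, the ankyrin that links spectrin to band 3, measured 2.37, 6.34 and 6.43 CPM in E12 DKO, 2.77, 27.0 and 11.4 in E12 WT, 0.550, 0.256 and 1.14 in E18 DKO, and 4.0, 13.4 and 4.68 in E18 WT. Its E18 DKO range was the lowest, without overlap. Ank1 fell by 3.52 ± 0.88 on the log2 scale against E18 WT (adjusted p = 0.00863) and by 2.97 ± 0.87 against E12 DKO (adjusted p = 0.0166, lost without E18 DKO 1 or E18 DKO 2 at 0.0579 and 0.0592). Without E18 DKO 3 these values were -4.21 and -3.66, and without E18 WT 2 the first was -2.75.

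Epb41, protein 4.1, which strengthens the spectrin-actin junction, is used by many cell types and fell less. It measured 74.6, 103 and 102 CPM in E12 DKO, 81.2, 111 and 80.0 in E12 WT, 49.0, 45.6 and 46.8 in E18 DKO, and 116, 121 and 103 in E18 WT. The E18 DKO libraries were tight and below all others. Epb41 fell by 1.26 ± 0.18 on the log2 scale against E18 WT (adjusted p = 0.000478) and by 0.98 ± 0.18 against E12 DKO (adjusted p = 0.00140). Sptb, the beta-spectrin chain, was the exception in its calls, with 4.03 to 7.97 CPM in E18 DKO, overlapping the 5.72 to 12.5 of E12 DKO. It lay in E18 DKO below the 8.48 to 21.5 CPM of E18 WT, without overlap. It differed by -1.18 ± 0.58 against E18 WT (adjusted p = 0.120) and by -0.53 ± 0.57 against E12 DKO (adjusted p = 0.472).

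All 5 membrane transporters and blood group genes fell in both comparisons, beside 21.8% and 22.8% of all genes. The medians of the 5 were -4.08 against E18 WT and -3.62 against E12 DKO. Slc4a1 (chromosome 11, 102348824 to 102366203), band 3, is the main protein that spans the red cell membrane. It measured 18.5, 76.5 and 53.0 CPM in E12 DKO, 23.2, 170 and 70.2 in E12 WT, 1.04, 1.41 and 2.12 in E18 DKO, and 59.8, 112 and 49.7 in E18 WT. The highest E18 DKO value was far below the lowest of the other 9 libraries. Slc4a1 fell by 5.60 ± 0.81 on the log2 scale against E18 WT (adjusted p = 0.000524) and by 5.01 ± 0.79 against E12 DKO (adjusted p = 0.000657).

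Ermap, which carries the Scianna blood group, measured 5.29, 20.1 and 14.0 CPM in E12 DKO, 3.61, 36.5 and 15 in E12 WT, 0.605, 0.171 and 0.272 in E18 DKO, and 11.9, 29.3 and 11.4 in E18 WT. It fell by 5.67 ± 0.95 on the log2 scale against E18 WT (adjusted p = 0.00108) and by 5.25 ± 0.94 against E12 DKO (adjusted p = 0.00133). Kel, a membrane metalloprotease that carries the Kell antigens, measured 4.34, 13.6 and 12.6 CPM in E12 DKO, 4.84, 36.3 and 27.1 in E12 WT, 0.275, 0.682 and 2.07 in E18 DKO, and 13.1, 25.7 and 12.1 in E18 WT. Neither gene's E18 DKO range met that of another group. Kel fell by 4.08 ± 0.86 against E18 WT (adjusted p = 0.00345) and by 3.34 ± 0.84 against E12 DKO (adjusted p = 0.00779). Single libraries moved these sizes but no call: Kel stood at -5.10 and -4.36 without E18 DKO 3, and Ermap at -6.30 and -5.89 without E18 DKO 1 and at -5.07 against E18 WT without E18 WT 2.

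The Rh genes were low in most libraries and highest in E12 WT 2, with Rhag at 8.56 CPM there. Rhd measured 0.789, 1.66 and 1.58 CPM in E12 DKO, 0.528, 6.60 and 2.24 in E12 WT, 0.330, 0.171 and 0.272 in E18 DKO, and 1.55, 4.13 and 1.85 in E18 WT. E18 DKO held the 3 lowest values. Rhd fell by 3.28 ± 0.84 on the log2 scale against E18 WT (adjusted p = 0.00960) and by 2.38 ± 0.83 against E12 DKO (adjusted p = 0.0359), the latter call lost without any 1 of the 3 E18 DKO libraries, E12 DKO 2 or E12 DKO 3 (up to 0.106). Rhag, its partner in an ammonia channel, had 6 counts in E18 DKO against 127 in E12 DKO and 142 in E18 WT. It fell in both (adjusted p = 0.0169 and 0.0139), each call lost in 2 of 12 fits without 1 library (up to 0.0615 and 0.0584). Against E18 WT, Rhag stood at -3.85 ± 1.07, and at -2.89 without E18 WT 2.

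**Figure D3:**
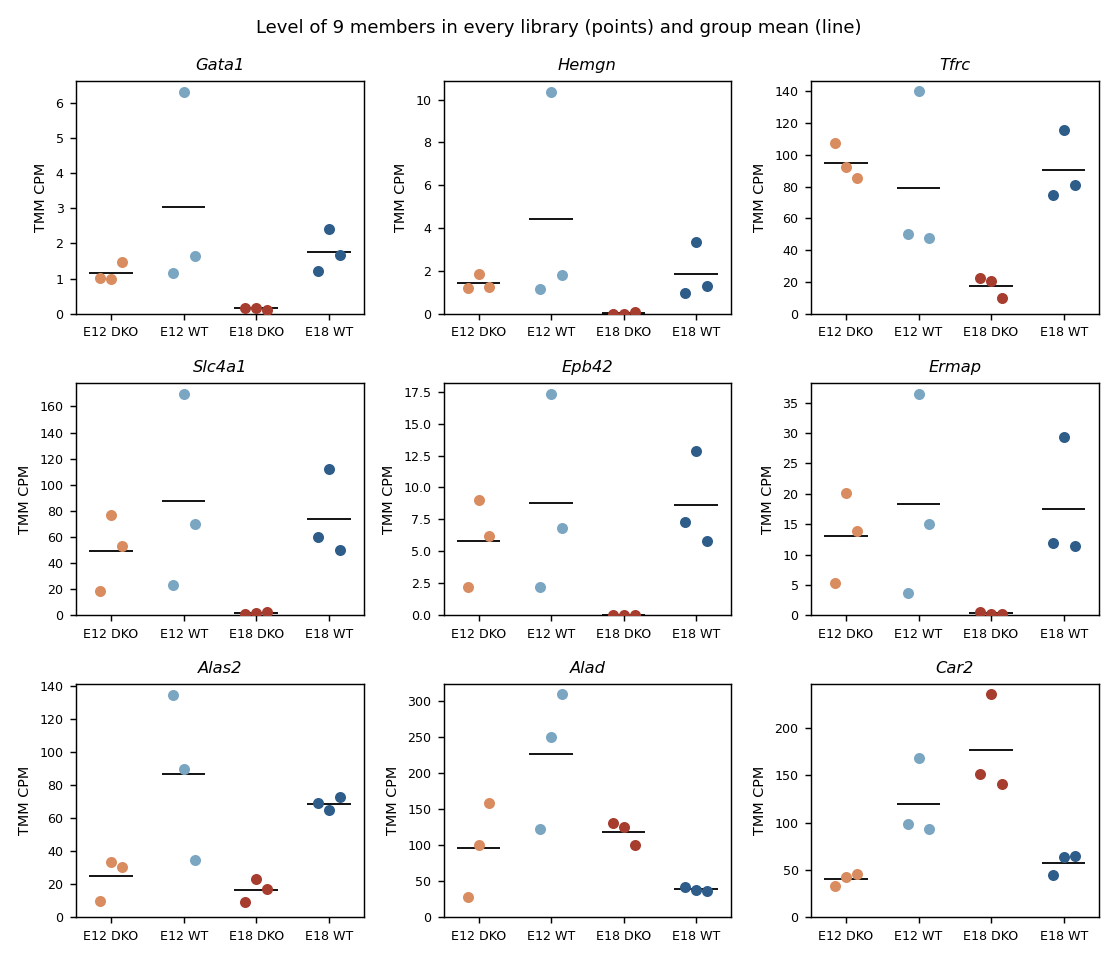
TMM CPM of 9 members in every library (points) with the mean of each group (line), on linear axes that start at 0. Gata1, Hemgn, Tfrc, Slc4a1, Epb42 and Ermap are lowest in E18 DKO, Car2 is highest there, Alas2 is low in both DKO groups, and Alad is lowest in E18 WT.

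Among the 3 cytoplasmic genes tested, 2 fell and 1 rose in each comparison. Of all genes, 21.8% fell and 20.5% rose against E18 WT, and 22.8% and 23.2% against E12 DKO. Car2 (chromosome 3, 14886273 to 14900770), a carbonic anhydrase of red cells and of many epithelia and macrophages, measured 32.5, 42.3 and 45.4 CPM in E12 DKO, 98.7, 168 and 92.7 in E12 WT, 152, 237 and 141 in E18 DKO, and 44.0, 63.9 and 64.9 in E18 WT. Its E18 DKO range lay above both E12 DKO and E18 WT and overlapped E12 WT. Car2 rose by 1.62 ± 0.29 on the log2 scale against E18 WT (adjusted p = 0.00144) and by 2.14 ± 0.29 against E12 DKO (adjusted p = 0.000303). With library size alone it was the only member still called higher in each comparison. Macrophage markers, a list of 6, summed to 828 to 1195 CPM in E18 DKO and 312 to 630 elsewhere (4 of 6 called higher and 2 lower against E18 WT), and their part in the Car2 level was not tested.

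Bpgm encodes the enzyme that makes bisphosphoglycerate, which lowers the oxygen affinity of hemoglobin. It measured 20.05, 36.6 and 33 CPM in E12 DKO, 55.0, 64.3 and 59.8 in E12 WT, 10.6, 12.0 and 23.2 in E18 DKO, and 53.0, 59.4 and 63 in E18 WT. Both WT groups lay above both DKO groups, whose ranges overlapped. Bpgm fell by 1.94 ± 0.30 on the log2 scale against E18 WT (adjusted p = 0.000743) and by 0.97 ± 0.30 against E12 DKO (adjusted p = 0.0203), the latter lost without E12 DKO 2, E12 DKO 3, E18 DKO 1 or E18 DKO 2 (up to 0.0801). Trim10, a ring-finger protein of late erythroblasts, measured 2.63, 5.25 and 3.82 CPM in E12 DKO, 2.95, 15.8 and 6.59 in E12 WT, 1.26, 0.341 and 0.545 in E18 DKO, and 5.16, 11.2 and 5.33 in E18 WT. It was lowest in E18 DKO without overlap, and fell by 3.34 ± 0.69 (adjusted p = 0.00308) and 2.45 ± 0.67 (adjusted p = 0.0121) against E18 WT and E12 DKO. Without E18 DKO 1 the Trim10 values were -4.03 and -3.14.

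Levels set against the globins separated Alas2 from the membrane genes Slc4a1, Epb42 and Ermap, which were among those that fell most. Globin counts, embryonic and adult summed, were 1001 to 4141 CPM in E12 DKO, 1023 to 1897 in E18 DKO, 7492 to 16206 in E12 WT and 8151 to 12763 in E18 WT. For each 1000 globin counts, Alas2 had 9.78, 8.07 and 11.4 counts in E12 DKO and 9.03, 14.0 and 8.76 in E18 DKO, ranges that overlapped. Slc4a1 had 18.5, 18.5 and 20 per 1000 in E12 DKO, although the globin level of these libraries ran from 1001 to 4141 CPM, and 1.02, 0.856 and 1.12 in E18 DKO. Epb42 had 2.17 to 2.34 against 0.0259 to 0.0537 and Ermap 4.86 to 5.29 against 0.104 to 0.591, with no overlap in either. In WT the spread within a group was wide, except for Alas2 in E18 WT. Epb42 had 0.300 to 1.07 in E12 WT and 0.457 to 1.57 in E18 WT, and Ermap 0.482 to 2.25 and 0.891 to 3.59. For Slc4a1, Epb42 and Ermap, E12 DKO thus lay above both WT groups. E18 DKO lay below both for Slc4a1 and Epb42, while for Ermap it overlapped E12 WT. Per globin count, Alas2 was higher in both DKO groups than in E18 WT, without overlap. Slc4a1 had 3.10, 10.5 and 5.13 in E12 WT and 5.92, 13.8 and 3.90 in E18 WT, and Alas2 had 18.0, 5.54 and 2.53, and 6.80, 7.91 and 5.68. These ratios are descriptions, since the globin copies share reads and the globins themselves changed in kind between the DKO stages.

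**Figure D4:**
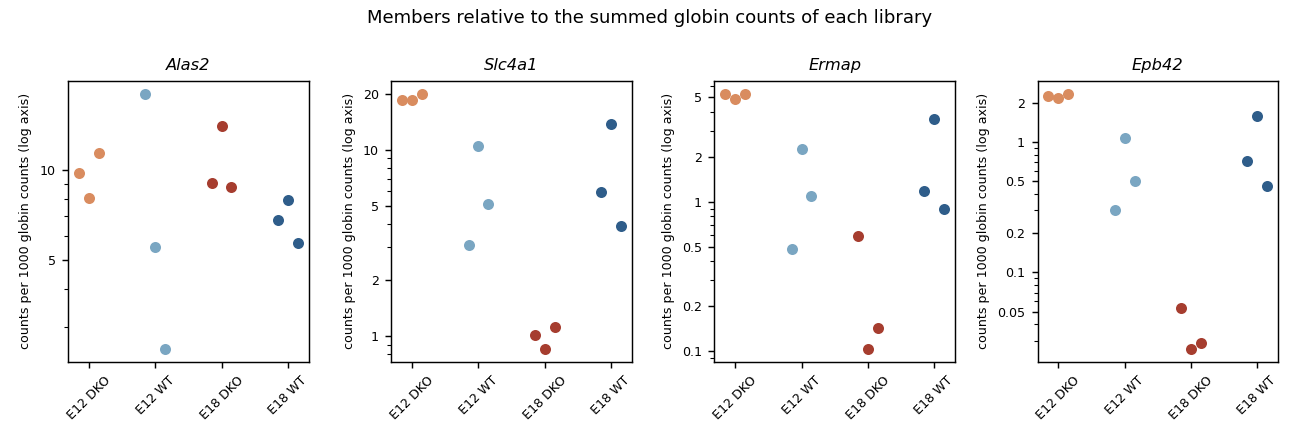
Counts of Alas2, Slc4a1, Ermap and Epb42 for each 1000 globin counts of the same library, by group, on log axes. Alas2 spans 8.07 to 14.0 over both DKO groups, while the other 3 genes are lower in all E18 DKO libraries than in all E12 DKO libraries.

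Compared per length (RPKM, CPM per 1000 bases of exon), the order of the members shifted. In E18 DKO the highest were Car2 at 72.9 ± 21.6 RPKM (SD over 3 libraries) and Alad at 63.1 ± 8.82, whose difference is within their spread, then Fech at 26.7 ± 4.46. In E12 DKO they were Alad at 50.9 ± 34.7 and Fech at 49.2 ± 4.28, not separable, and in E12 WT Alad at 121 ± 51.3. In E18 WT, Fech led at 41.5 ± 13.4, then Alas2 at 28.5 ± 1.67 and Cpox at 27.6 ± 8.28, which overlap. Slc4a1 ranked between the seventh and the ninth in those 3 groups (10.1 ± 5.97, 17.9 ± 15.3 and 15.1 ± 6.87 RPKM) and at 0.312 ± 0.112 RPKM it was number 19 of 32 in E18 DKO.

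Promoters of 4 genes that fell in E18 DKO and of Alas2, which was not called between the DKO stages, are shown because all 5 hold the same short motif, and they were picked after the matches were seen. They run from 250 bases before to 50 after the start site in RefSeq (GRCm38.p6), 5′ to 3′ on the gene's strand, with each AGATAA or TGATAA, the core that GATA factors recognise, in capitals. The reverse complements TTATCT and TTATCA are in capitals too. The regions are chr2:121036828-121037127 (minus) for Epb42, chr4:46404134-46404433 (minus) for Hemgn, chr4:119189946-119190245 (minus) for Ermap, chr6:41704276-41704575 (minus) for Kel and chrX:150547167-150547466 (plus) for Alas2.
Epb42: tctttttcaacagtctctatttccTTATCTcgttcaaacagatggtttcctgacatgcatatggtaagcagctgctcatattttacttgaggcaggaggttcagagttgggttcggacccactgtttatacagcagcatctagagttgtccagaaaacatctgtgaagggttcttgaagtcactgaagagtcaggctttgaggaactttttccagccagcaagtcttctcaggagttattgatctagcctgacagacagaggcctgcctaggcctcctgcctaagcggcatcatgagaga
Hemgn: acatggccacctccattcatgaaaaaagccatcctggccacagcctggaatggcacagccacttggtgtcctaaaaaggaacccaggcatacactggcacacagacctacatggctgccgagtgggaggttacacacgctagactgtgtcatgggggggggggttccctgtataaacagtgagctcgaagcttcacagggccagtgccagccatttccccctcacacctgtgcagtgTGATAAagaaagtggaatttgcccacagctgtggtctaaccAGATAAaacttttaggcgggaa
Ermap: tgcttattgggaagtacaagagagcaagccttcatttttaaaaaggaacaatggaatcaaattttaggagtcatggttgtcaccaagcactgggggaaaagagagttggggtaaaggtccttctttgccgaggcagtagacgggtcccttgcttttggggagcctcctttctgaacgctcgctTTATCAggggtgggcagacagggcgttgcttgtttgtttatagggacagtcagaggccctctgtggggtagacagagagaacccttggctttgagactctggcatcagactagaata
Kel: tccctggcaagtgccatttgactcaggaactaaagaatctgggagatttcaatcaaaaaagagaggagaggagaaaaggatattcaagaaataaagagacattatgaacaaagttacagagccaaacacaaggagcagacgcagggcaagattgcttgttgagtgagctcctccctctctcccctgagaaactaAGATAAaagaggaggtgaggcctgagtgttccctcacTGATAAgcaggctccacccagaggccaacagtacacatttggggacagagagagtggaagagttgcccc
Alas2: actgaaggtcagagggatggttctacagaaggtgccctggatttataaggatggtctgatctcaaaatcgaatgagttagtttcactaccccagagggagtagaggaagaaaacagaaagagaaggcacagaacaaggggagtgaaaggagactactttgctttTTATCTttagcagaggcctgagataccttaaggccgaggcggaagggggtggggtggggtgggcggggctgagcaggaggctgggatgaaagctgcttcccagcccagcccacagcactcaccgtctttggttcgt
The match began 226 bases before the start in Epb42, 67 in Ermap and 86 in Alas2. Hemgn had one match 13 bases before and another 28 after the start, and Kel had matches 56 and 19 bases before it. Over all 32851 promoters of this length in the table, 6115 (18.6%) held a match on either strand, against 13 of the 30 promoters (43.3%) listed for the 24 members with an entry. The members were chosen as erythroid genes, and a match is neither a bound site nor a cause. Between the DKO stages, a match was held by 8 of the 15 members with an entry that fell, by 5 of the 8 not called, and not by Slc25a38, the 1 member that rose and had an entry. Slc4a1, Ank1, Nfe2, Lmo2, Car2, Slc25a37 and Car1 had no entry, and Fech was not examined.

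At E12, where DKO was compared with WT of the same labelled day, 1 of 31 members was called, beside 0.353% of all tested genes (64). Car2 was lower in E12 DKO by 1.58 ± 0.29 on the log2 scale (adjusted p = 0.0490), with all 3 values below all 3 of E12 WT. The call was lost with library size alone (adjusted p = 0.0681) and in 10 of 12 fits without 1 library (0.0514 to 0.243). DESeq2 called 5 (Alas2, Bpgm, Car2, Slc25a38 and Urod, all lower), beside 1340 of 17637 genes called lower. Unadjusted, 8 members (25.8%) had p under 0.05, near the 24.3% of all tested genes. The members' median was -0.83 and that of all genes -0.08, with 26 members below 0. Without E12 WT 2 the members' median was -0.11, with 18 below 0 and 13 above, and without E12 WT 1 it was -1.23. CPM ranges did not overlap, with E12 DKO lower, for 6 members (Alas2, Bpgm, Car2, Lmo2, Slc25a38 and Urod), beside 14.4% of all tested genes. With E12 DKO higher this held for no member, beside 15.7% of all tested genes. Alas2 differed by -1.82 ± 0.53 (adjusted p = 0.0963), Urod by -0.82 ± 0.22 (0.0828) and Bpgm by -1.0 ± 0.29 (0.0977).

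E12 WT 1 weighed on that comparison. Without it, 8 members were called lower in E12 DKO (Alad, Bpgm, Car2, Epor, Gata1, Slc25a38, Sptb and Urod), beside 1901 of 18723 genes. Another 1298 genes were called higher, which made 3199 in all. E12 WT 1 was the lowest of its 3 libraries for 25 of 31 members (80.6%, against 41.6% of all genes), and E12 WT 2 the highest for 26 (83.9%, against 24%). E12 DKO 1 was likewise the lowest of its group for 25 members, against 36.4% of all genes. Without E12 WT 2, the Slc4a1 difference turned from -0.83 ± 0.65 (adjusted p = 0.449) to 0.08. Megakaryocyte markers, which share regulators with red cells, summed to 67.3 to 181 CPM in E12 WT and 30.1 to 36.2 in E12 DKO (8 markers, with 0 at 0 and 0 called by edgeR, 2 at an unadjusted p under 0.05). Ppbp alone gave 159 of the 181 CPM, in E12 WT 1, and the other 7 markers summed to 22.2 CPM there, 57.4 and 82.4 in the other E12 WT libraries and 27.5 to 33.2 in E12 DKO. Their part in the regulator levels was not tested.

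Between the labelled WT stages 1 member was called, beside 0.953% of all genes (173). Alad was lower in E18 WT by 2.57 ± 0.52 on the log2 scale (adjusted p = 0.0446), with 36.3 to 41.2 CPM against 122 to 309 and no overlap. The call was lost in 9 of 12 fits without 1 library (0.0589 to 0.164) and with library size alone (0.0506). Bcl11a differed by 1.65 ± 0.58 (adjusted p = 0.179), Car2 by -1.06 ± 0.28 (0.108) and Slc25a38 by -0.55 ± 0.18 (0.156). Without E12 WT 1, 4 members were called lower (Alad, Car2, Slc25a38 and Urod), beside 1051 of 18723 genes. DESeq2 called 2 lower (Alad and Car2), beside 768 of 17989 genes. The median was -0.32 for the members and -0.05 for all genes. It turned to 0.12 without E12 WT 2, with 22 members above 0 and 9 below, and was -0.70 without E12 WT 1 and -0.68 without E18 WT 2.

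The genotype difference itself changed between the labelled stages for 13 of 31 members, and for 7600 of 18153 genes. A higher difference at E18 was called for 9.68% of members and 21.6% of all genes, a lower one for 32.3% and 20.3%. Car2, Alad and Slc25a38 had a more positive difference at E18, by 3.20 ± 0.41 (adjusted p = 0.000329), 2.88 ± 0.70 (0.00779) and 1.40 ± 0.26 (0.00195) on the log2 scale. The other 10 had a more negative one, the largest being Epb42 at -6.70 ± 1.20 (adjusted p = 0.00162), Ermap at -5.18 ± 1.17 (0.00546) and Hemgn at -4.81 ± 1.56 (0.0290). The calls of Hemgn, Nfe2 and Tal1 were lost in 4, 7 and 7 of 12 fits without 1 library, and that of Slc25a38 with library size alone (adjusted p = 0.0594). Without E12 WT 2, 21 members were called, beside 7726 of 18681 genes. The values of Epb42, Ermap and Hemgn were then -7.65, -6.15 and -6.39. The test uses all 4 groups, including the libraries that stood apart.

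A further list of 57 erythroid genes outside the set was tested whole. Against E18 WT 12 rose (21.1%, beside 20.5% of all genes) and 19 fell (33.3%, beside 21.8%), with a median of -0.09. Against E12 DKO 16 rose (28.1%, beside 23.2%) and 15 fell (26.3%, beside 22.8%), with a median of -0.05. Apart from the falls against E18 WT, these shares were near those of all genes. Fth1, the ferritin heavy chain that stores iron, rose by 2.46 ± 0.25 on the log2 scale against E18 WT (adjusted p = 0.000123) and by 2.26 ± 0.25 against E12 DKO (0.000119). Steap3, which reduces iron in the transferrin cycle, fell by 2.05 ± 0.30 (0.000538) and 2.48 ± 0.30 (0.000177), and Xpo7, a nuclear exporter used in erythroblasts, by 1.65 ± 0.23 (0.000454) and 1.77 ± 0.23 (0.000234). Sox6, a repressor of embryonic globins, fell by 1.42 ± 0.19 against E12 DKO (0.000245). At E12 edgeR called 0 of the 57 (20 at an unadjusted p under 0.05, 7 by DESeq2), and Sox6 differed by 0.67 ± 0.18 (0.0876). Between the WT stages it called 0 (4 unadjusted, 2 by DESeq2), the lowest being Fth1 (-0.78 ± 0.24, 0.137), Mfsd2b (-1.34 ± 0.44, 0.160), Steap3 (-0.80 ± 0.29, 0.185) and Stom (-0.42 ± 0.18, 0.243). The genotype difference changed for 25 of them, 14 upward (24.6%, beside 21.6% of all genes) and 11 downward (19.3%, beside 20.3%), shares near those of all genes, among them Fth1 (3.04 ± 0.34, 0.000226), Xpo7 (-2.15 ± 0.32, 0.000668) and Stom (1.65 ± 0.25, 0.000707).

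Markers of other cells that share members with red cells moved with E18 DKO in part. Of all genes, 20.5% were called higher and 21.8% lower against E18 WT, and 23.2% and 22.8% against E12 DKO. Mast cell markers summed to 7.52 to 25.8 CPM in E18 DKO and 0.407 to 2.04 elsewhere, with Ms4a2 at 0 in all E18 DKO libraries. Of the 3 tested, 3 were called higher against E12 DKO and 2 against E18 WT. Mast cells carry Gata1 and Tal1. Megakaryocyte markers summed to 30.5 to 69.0 CPM in E18 DKO and 38.1 to 78.2 in E18 WT, with 1 of 8 called lower against E18 WT and 2 of 8 against E12 DKO. Endothelial markers, cells that carry Lmo2 and Tal1, summed to 363 to 422 CPM in E18 DKO, 225 to 277 in E12 DKO and 201 to 371 in E18 WT, with 4 of 8 called higher against E12 DKO, and 3 higher and 1 lower against E18 WT. The part of these cells in the Gata1, Lmo2 and Tal1 levels was not tested.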

How the data were processed

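Fetal membranes had been dissected, snap-frozen and ground, and stranded poly(A) libraries were made from total RNA, per the labels' protocols. Trimmomatic 0.36, STAR 2.4.2a and featureCounts of Subread 1.5.0 with GRCm38 are named in the submitters' processing notes. The deposited values are raw read counts per gene, made by the authors and not normalized, per the file headers. The columns of the series table equalled the library files for 11 libraries. The E18 WT columns are numbered differently from the titles and were joined through these identical counts.

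Counts were scaled by TMM, filtered with filterByExpr and fitted in 1 model of 12 libraries with edgeR 4.0.16 in R 4.3.3, leaving 8 residual degrees of freedom, with a common biological coefficient of variation of 0.373. SE is the log2 fold change divided by the root of its F statistic. The script was tested on simulated data. DESeq2 1.42.0 and other scalings, filters, designs and left-out libraries were alternatives. Full values were given for up to 4 members per role with the lowest adjusted p and for those called at E12. Of 57 other erythroid genes, up to 4 per comparison with the lowest adjusted p were named, and some that this rule picks are not reported here. Members, lists and this rule were chosen with earlier results of these data known. Intervals cover counting error only.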

Additional observations from a re-analysis of the deposited data

Results flagged for a closer look

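For 13 of 31 members the genotype difference was not the same at the 2 labelled stages by the interaction test of edgeR. Of all 18153 tested genes 7600 were called, so the total does not set the members apart. By direction, 9.68% of members were called higher and 32.3% lower, beside 21.6% and 20.3% of all genes. Each value is the log2 difference of DKO from WT at E18 minus that at E12. It was positive for Car2 (3.20), Alad (2.88) and Slc25a38 (1.40). Among the regulators it was negative for Hemgn (-4.81), Bcl11a (-4.72), Nfe2 (-3.01) and Tal1 (-2.18), and for the iron uptake receptor Tfrc it was -2.63. In the membrane skeleton it was -6.70 for Epb42, -4.27 for Add2 and -1.30 for Epb41. For the membrane proteins Ermap and Slc4a1 it was -5.18 and -4.77. Hemgn and Epb42 rest on 1 and 3 counts in E18 DKO, so the size of their fitted values depends on the prior count of the fit.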

How the results depend on the processing

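The comparisons of E18 DKO with E18 WT and with E12 DKO gave 24 to 26 and 23 to 25 called members with another scaling, no filter, the replicate block, only the groups compared, DESeq2, or E12 WT 1 and E18 WT 3 left out together, and 20 to 26 and 16 to 25 without 1 library at a time. The all-gene counts of 7678 and 8349 became 7260 to 9159 and 7922 to 10371 under the former alternatives. Without 1 library they became 5833 to 9452 and 6426 to 10014. The number of tested genes differed between fits. Of the called members, 19 of 24 and 15 of 23 were called in all 12 fits without 1 library. With library size alone the splits were 1 higher and 23 lower, and 1 higher and 22 lower, with 22 of the 24 and 21 of the 23 called members among them. At E12 the 1 called member became 0 with library size alone, with the replicate block and with only the groups compared, 7 without E12 WT 1 and E18 WT 3 together, 5 with DESeq2, and 0 to 8 without 1 library. The all-gene count of 64 there became 5 with the block, 0 with only the groups compared, 3753 without that pair, 2085 with DESeq2 and 1 to 3199 without 1 library. Library size alone turned its split from 17 higher and 47 lower to 41 and 14. Between the WT stages the 1 called member became 0 with library size alone and with the block, 2 with DESeq2 and 0 to 4 without 1 library. The all-gene count of 173 (53 higher, 120 lower) became 272 (181 and 91), 77, 56 with only the groups compared, 1028 without the pair, 1223 with DESeq2 and 35 to 1684 without 1 library. The interaction gave 10 to 21 members without 1 library, beside 6198 to 8528 of all genes (7600 in the main fit). With library size alone its all-gene split went from 3921 and 3679 to 2187 and 6438. Its fit with only the groups compared is the same model and was not repeated.

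Under at least 1 alternative, signs changed for 11 members at E12 (8 without E12 WT 2), 22 between the WT stages (18 without E12 WT 2), 4 in the interaction, 2 between the DKO stages and 1 against E18 WT, none of them called in that comparison. Of the values printed above, 3 genes reversed. Slc4a1 at E12 ran from -1.29 to 0.080 without 1 library, Urod against E18 WT from -0.22 to 0.016 (0.0066 without E18 WT 1), and Alad between the DKO stages from -0.13 to 0.88. With library size alone Alad and Urod between the DKO stages were -0.016 and -0.047. The cause was not tested. Deviations of 18 same-numbered pairs correlated from -0.176 to 0.288. Pairs with different numbers were not examined, so these values cannot decide whether the replicate numbers pair the libraries. The numbers are those of the titles, from which the E18 WT columns differ. With the replicate block 24, 23 and 16 members were called against E18 WT, against E12 DKO and in the interaction. Beside these, 7489, 8201 and 7294 of 18153 tested genes were called. Tal1 between the DKO stages was not called with the block (adjusted p = 0.0790). Depth limits Hemgn, Epb42, Myb and Rhag, with 1 to 6 counts in E18 DKO.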
